A study of Mus musculus with 16 samples.

Results

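The genes described here are the mouse zinc finger genes whose symbol is Zfp followed by a number. They were chosen by symbol alone. All 304 probes of 235 such genes were taken from the array, genes detected on at least 2 of the 16 arrays were kept, and the brightest probe stood for each gene. This left 157 members of the 9405 named genes detected by the same rule, and the limit of 300 members set for the group was not reached. Of the 78 genes left out, 73 were detected on 0 arrays and 5 on 1 array. Those 5 had mean signals between 64.7 and 82.3, and the 9 members detected on exactly 2 arrays lay between 75.7 and 83.2. Detection on all 16 arrays was found for 90 members, and 16 members had more than 1 detected probe.

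The symbol covers proteins of several kinds. Most carry rows of C2H2 fingers that bind DNA, and many of these also carry a KRAB domain, which brings the corepressor TRIM28 and the histone methyltransferase SETDB1 to transposons and other targets to silence them. Others, such as Zfp36, the mRNA decay factor tristetraprolin, bind RNA through a different kind of finger. Many mRNAs of this family are short-lived, so their level can drop soon after synthesis slows. The question put to the data was therefore whether these genes fell where DNA damage genes rose.

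RNA came from cells labelled as mouse embryonic fibroblasts (MEFs) and was hybridised to 16 Illumina BeadChip arrays, 1 array for each condition. By their labels, 8 arrays hold MEFs transformed with RasV12 and E1A, either of Smad1-/- genotype (titled cre) or of floxed Smad1f/f genotype (titled pbabe). They were treated for 12 h with BMP2 and ADR together, with BMP2 alone or with ADR alone, against untreated cells at 0 h. The other 8 are labelled non-transformed primary MEFs at passage 2, given the same 3 treatments or none, at 8 h or 16 h. BMP2 is a bone morphogenetic protein that signals through SMAD1, and ADR is Adriamycin (doxorubicin), which poisons topoisomerase II and breaks DNA. The dose is uncertain: titles name BMP2 at 100 ng/ml and ADR at 0.3 uM, but the study design has BMP2 at 50 ng/ml and doxorubicin at 1 ug/ml. Each genotype is 1 line, and the labels name no separate cultures. The untreated transformed arrays are from 0 h, so a comparison with them also spans 12 h of culture.

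Single arrays detected 40.1% to 46.8% of the 24613 probes and 110 to 135 members. Values below are log2 signals after background correction and quantile normalization. A difference is on the log2 scale and is followed by its standard error from limma, and a gene passed at an adjusted p under 0.05. With 1 array per condition, the spread came from how far the arrays departed from a sum of line (or time) and treatment effects. The p-values measure only that spread and may leave out the spread between cultures. Some of the markers went against the labels. The fibroblast genes Col1a1, Col1a2, Col3a1 and Thy1 were detected on 8 of 8 arrays labelled transformed and on 0 of 8 labelled primary. Other fibroblast markers were detected in both sets, with Vim, Fn1, Pdgfra and Pdgfrb on 8 of 8 arrays labelled primary and S100a4 on 7. These read lower there, as with Vim at 13.97 to 14.45, against 14.59 to 14.74 on the arrays labelled transformed. Krt18, a keratin of simple epithelia, stood between 5.04 and 5.58 on the arrays labelled transformed, against 10.63 to 12.05 on those labelled primary. The other 3 epithelial markers tested were not higher on the primary arrays. Krt7 was detected on 8 arrays labelled transformed and 2 labelled primary, at 5.60 to 9.72 against 4.84 to 6.18, Krt19 on 4 and 0, and Cldn4 on 8 and 6, at 5.39 to 6.13 against 5.25 to 5.77. Smad1 itself read 8.36 to 9.14 with the Smad1-/- label, against 8.73 to 8.86 with the Smad1f/f label. Over all 9 fibroblast markers the summed signal was 51692 to 60441 on the arrays labelled transformed, against 16397 to 22743 on those labelled primary. Whether the Smad1 probe lies in the deleted part is not known. Genes of the DNA damage response went against the treatment labels as well. Relative to untreated arrays, the median of the p53 target and damage genes was -0.12 and -0.046 on the transformed and 0.0051 and 0.029 on the primary arrays labelled ADR alone, against 0.29, 0.36, 0.31 and 0.13 on those labelled BMP2 alone. Whether the treatment labels are right was not tested. The groups are therefore named by their labels only. One deposited signal column, that of the Smad1-/- BMP2 array, repeated another and was recovered from the authors' log2 table.

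Members differed widely in how far they moved across the 16 arrays. The SD of the log2 signal over arrays ran from 0.12 to 1.69 with a median of 0.37, and 5 members exceeded 1. These 5 had different patterns. Zfp521, a cofactor that steers adipocyte and osteoblast fate, and Zfp871 were high on all 8 arrays labelled transformed and low on all 8 labelled primary. Zfp707 was high on the 4 transformed arrays with BMP2, Zfp536, a repressor of neuronal differentiation, on the 4 primary arrays with BMP2, and Zfp296, a factor of embryonic stem cells, was low on the 4 transformed arrays without BMP2. In all, 125 members could be tested within both sets of arrays, 11 within the transformed set only, 20 within the primary set only and 1 in neither, because each fit asked for detection on 2 of its own arrays. At 14 members no transformed array gave a detected signal, and at 5 members no primary array did. In these whole-culture samples fewer cells of a type and less RNA per cell cannot be told apart.

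On the arrays labelled transformed, many Zfp genes were lower with the BMP2 label. Of the 136 members tested, 61 fell and 17 rose with BMP2 for 12 h against no treatment at 0 h, with a median difference of -0.30. The members' share lower was 44.9%, against 24.9% of all 10276 genes tested, and their share higher 12.5%, against 24.2% of all genes, whose median was -0.0018. Of the 61, 16 fell by at least 1 on the log2 scale, and 13 were undetected on both BMP2 arrays. Of the 17, Zfp750 was undetected on the untreated and the BMP2 arrays alike. The lists of other zinc finger genes moved in the same sense. Of 40 genes of the Klf, Zbtb, Zkscan, Zscan and Znf families 23 fell and 6 rose, with Klf6, an early growth factor response gene, at -2.22 ± 0.091, Zkscan14 at 1.90 ± 0.12 and Zbtb22 at -1.76 ± 0.091 (adjusted p = 1.19e-07, 9.69e-07 and 3.14e-07 by limma). Krt19, 1 of 4 detected epithelial markers, also passed, at least 2.43-fold higher with BMP2, and the summed signal of the 4 was 271 and 345 with BMP2, against 216 and 229 untreated. Its part in the members' differences was not tested.

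**Figure D1:**
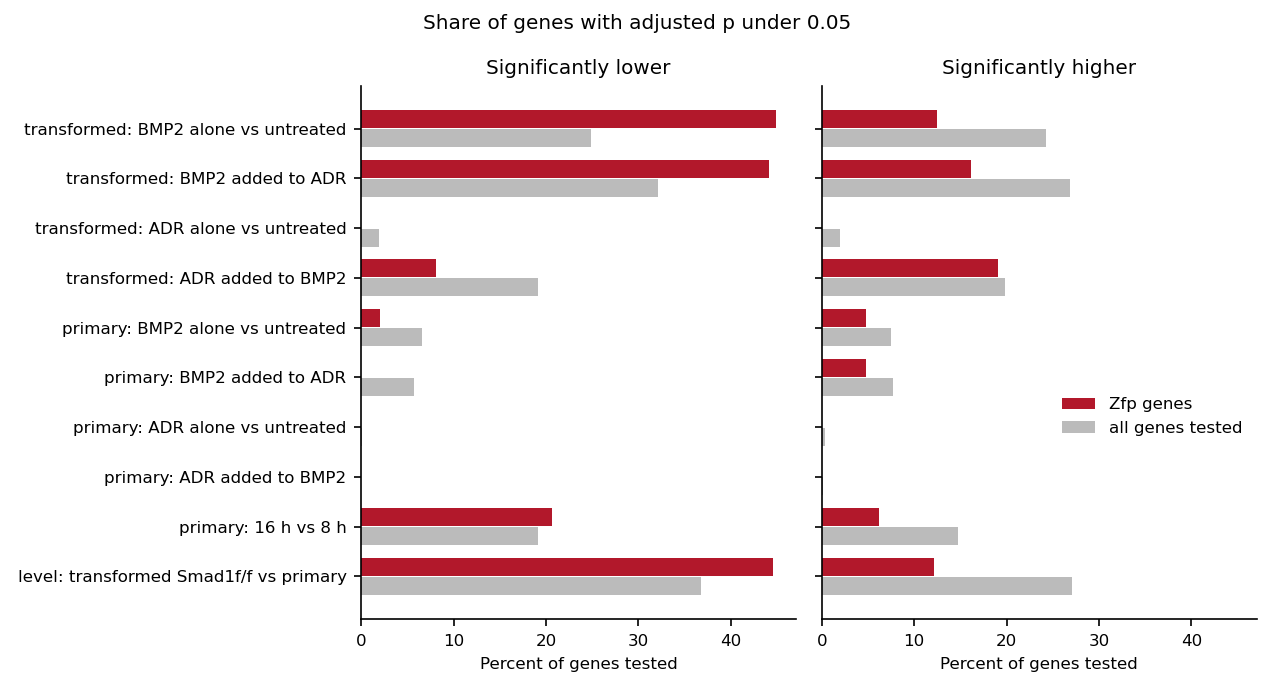
Horizontal bars give the percent of genes tested that were significantly lower (left) or higher (right) by limma at an adjusted p under 0.05, for the Zfp genes (red) and for all genes tested (grey), in 10 comparisons. The Zfp genes exceed all genes in the share lower in both transformed BMP2 comparisons, at 44.9% against 24.9% and 44.1% against 32.1%, and fall short of it in the share higher.

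The member with the lowest difference was Zfp90, a KRAB zinc finger gene. It read 5.02 and 5.45 on the Smad1-/- and Smad1f/f arrays with BMP2, against 7.71 and 7.55 on the untreated arrays of those lines. The difference was -2.39 ± 0.17 (adjusted p = 2.00e-06 by limma). Zfp27, also of the KRAB class, read 5.11 and 5.03 with BMP2, against 7.25 and 7.35 untreated, was undetected on both BMP2 arrays and was at least 4.08-fold lower (adjusted p = 1.73e-06 by limma). Zfp472 read 5.55 and 5.64 with BMP2, against 7.25 and 7.32 untreated, a difference of -1.69 ± 0.14 (adjusted p = 5.64e-06 by limma). These 3 genes were chosen from the lowest passing members, so the lack of overlap between their groups adds no evidence.

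Brighter probes fell as well. Zfp637 read 8.74 and 9.10 with BMP2, against 10.55 and 10.60 untreated, and differed by -1.65 ± 0.098. Zfp317 read 6.54 and 6.27 with BMP2, against 7.83 and 8.19 untreated, and differed by -1.61 ± 0.17. Zfp638, which binds cytosine-rich DNA and silences unintegrated retroviral DNA, read 8.47 and 8.40 with BMP2, against 10.04 and 9.86 untreated, and differed by -1.52 ± 0.093. These 3 genes passed in limma (adjusted p = 6.78e-07, 2.55e-05 and 7.75e-07). All 5 of the brightest members fell, the other 3 being Zfp180 at -1.47 ± 0.13, Zfp131, a BTB-domain zinc finger gene, at -0.76 ± 0.085 and Zfp639 at -0.36 ± 0.081.

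Members with known roles went both ways. Of 23 tested members of this role list 8 fell and 4 rose, beside 24.9% lower and 24.2% higher among all genes. Zfp521 differed by -1.15 ± 0.11, and Zfp467, which promotes adipocyte differentiation, was undetected on both BMP2 arrays and at least 2.03-fold lower. Zfp207, a partner of the spindle checkpoint protein BUB3, differed by -0.66 ± 0.11 and Zfp57, which keeps imprints methylated, by -0.56 ± 0.15, while Zfp335, a gene needed by neural progenitors, was at least 1.07-fold lower. Higher were Zfp346, a binder of double-stranded RNA, at 0.98 ± 0.14, Zfp365, a genome stability gene, at 0.76 ± 0.18, and Zfp326, a subunit of the DBIRD complex that links transcript elongation to splicing, at 0.61 ± 0.11. The adjusted p-values of these genes lay between 1.22e-05 and 0.014 in limma. Zfp326 no longer passed with median scaling, where it differed by 0.28.

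The rising members were fewer, but the leading ones changed as much as the falling ones. Zfp296 read 7.71 and 7.78 on the Smad1-/- and Smad1f/f arrays with BMP2, against 5.47 and 5.20 untreated, a difference of 2.41 ± 0.17 (adjusted p = 1.96e-06 by limma). Zfp707 read 8.45 and 8.75 with BMP2, against 6.62 and 6.55 untreated, a difference of 2.01 ± 0.13 (adjusted p = 1.02e-06 by limma). Both genes were chosen from the highest passing members, so the lack of overlap between their groups adds no evidence. Zfp654 differed by 1.59 ± 0.12, Zfp219, a partner of SOX9 in cartilage formation, by 1.49 ± 0.092, and Zfp64, which in human leukaemia drives the MLL gene, by 1.18 ± 0.096 (adjusted p = 2.58e-06, 8.04e-07 and 4.74e-06 by limma).

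**Figure D2:**
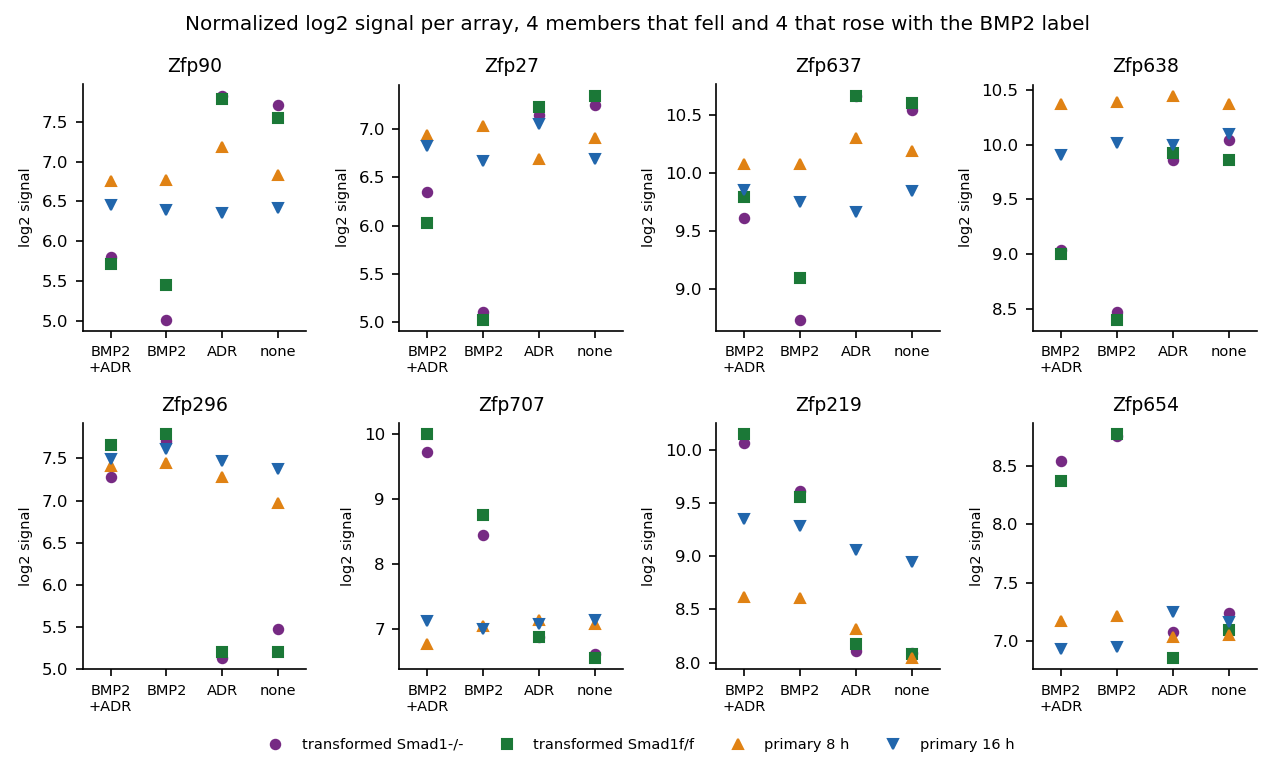
Each panel plots the normalized log2 signal of 1 gene on all 16 arrays by treatment label (BMP2 with ADR, BMP2, ADR, none), with circles for transformed Smad1-/-, squares for transformed Smad1f/f, and triangles up and down for primary at 8 h and 16 h. Zfp90, Zfp27, Zfp637 and Zfp638 are low and Zfp296, Zfp707, Zfp219 and Zfp654 high on the transformed arrays with BMP2, while the primary arrays of each gene stay closer together.

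The size of the shift depended on the scaling, and its direction did not. With each array scaled to its median, 76 members were lower and 11 higher, the members' median was -0.46 and that of all genes -0.19. The shares lower were then 55.9% of members and 36.6% of all genes, and 14.0% of all genes were higher. With the authors' log2 values 46 were lower and 20 higher, the median was -0.10, and the shares lower were 33.8% of members and 24.7% of all genes. Leaving out 1 array at a time gave 41 to 60 members lower and 12 to 17 higher.

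Promoters of the members were read from RefSeq (GRCm38.p6), as 250 bases before to 50 after each start, and 128 of 157 members matched, with 165 promoters. Their median GC content was 56.7%, against 60.3% for all detected genes and 52.7% for all 32851 promoters. Of 8 motifs searched on both strands, the Zfp143 element, spelled by the capitals in the windows of Zfp1 to Zfp933, was in 3.03% of the members' promoters, against 0.685% of those of all detected genes and 0.286% of all promoters. CCGGAA, the core of ETS sites, was in 33.3%, against 25.6% and 14.9%, and GGGCGG, the GC box, in 49.7%, against 60.6% and 35.7%. The others were CTCGCGAGA, the NRF1 site, the cyclic AMP element TGACGTCA, TATAAA and the YY1 site, at 1.21%, 3.64%, 3.03%, 6.06% and 1.82% of members' promoters, against 1.37%, 1.86%, 2.94%, 8.38% and 1.36% of those of all detected genes and 0.676%, 0.971%, 1.79%, 13.6% and 0.633% of all promoters. Matches to different motifs did not overlap in the members' promoters. Of 65 promoters of members lower with BMP2 alone 4 held the Zfp143 element (6.15%), and 1 of 15 of members higher (6.67%). A match describes letters and not binding.

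The 5 members with the Zfp143 element are shown because the element is the rarest in promoters as a whole. Each window runs 5′ to 3′ on the gene's strand, with the match in capitals in either orientation. Zfp1 is at chr8:111643398-111643448 (+), Zfp180 at chr7:24081855-24081905 (+), Zfp692 at chr11:58307001-58307051 (+), Zfp93 at chr7:24270327-24270377 (+) and Zfp933 at chr4:147848420-147848470 (-). With BMP2 alone on the transformed arrays Zfp692 rose and the other 4 fell.
Zfp1: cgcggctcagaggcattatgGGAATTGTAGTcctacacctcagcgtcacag
Zfp180: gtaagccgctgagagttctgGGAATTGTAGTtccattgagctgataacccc
Zfp692: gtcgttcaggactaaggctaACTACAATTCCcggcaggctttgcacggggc
Zfp93: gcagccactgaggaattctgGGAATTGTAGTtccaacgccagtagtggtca
Zfp933: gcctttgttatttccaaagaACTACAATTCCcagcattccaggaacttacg

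Whole promoters of 2 members with large BMP2 differences are shown as examples, with every match to the 8 motifs in capitals. That of Zfp472, which fell, is at chr17:32965581-32965880 (+) and holds CCGGAA on both strands. That of Zfp296, which rose, is at chr7:19577037-19577336 (+) and holds GGGCGG on both strands. The pair does not stand for all members that fell or rose. CCGGAA was in 32.3% of promoters of members lower with BMP2 alone and 26.7% of those higher, and GGGCGG in 44.6% and 66.7%. The shares of the members higher rest on 4 and 10 of 15 promoters. Among the 61 promoters of the other members tested CCGGAA was in 36.1% and GGGCGG in 52.5%. A link between motif and direction was not tested. The promoter of Zfp638, which fell, holds GGGCGG and no CCGGAA.
Zfp472: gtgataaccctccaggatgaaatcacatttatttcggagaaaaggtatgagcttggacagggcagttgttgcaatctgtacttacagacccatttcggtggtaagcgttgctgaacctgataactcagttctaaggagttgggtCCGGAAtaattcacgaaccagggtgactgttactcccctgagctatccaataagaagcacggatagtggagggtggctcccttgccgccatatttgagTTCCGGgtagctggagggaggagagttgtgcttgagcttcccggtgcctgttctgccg
Zfp296: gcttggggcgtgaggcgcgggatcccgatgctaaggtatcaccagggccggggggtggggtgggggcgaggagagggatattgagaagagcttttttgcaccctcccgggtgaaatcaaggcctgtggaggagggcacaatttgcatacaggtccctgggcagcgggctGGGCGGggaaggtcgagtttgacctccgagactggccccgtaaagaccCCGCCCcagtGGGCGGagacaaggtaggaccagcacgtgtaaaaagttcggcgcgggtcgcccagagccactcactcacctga

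BMP2 added to ADR was compared with ADR alone on 4 other arrays, all from 12 h. Zfp genes were again lower more often than all genes, at equal time in culture. Of 136 members 60 fell and 22 rose, with a median of -0.33, and the shares lower and higher were 44.1% and 16.2% of members, against 32.1% and 26.9% of all genes. Of the 61 members lower with BMP2 alone 47 were lower here, which is 77.0% of that list and 78.3% of this one, and 15 higher genes were shared, 88.2% of the first list and 68.2% of the second. Zfp750 is among the shared higher genes, but its rise with BMP2 alone rests on signals not above background. Both lists come from 1 fit and share its estimate of spread. The overlap of all genes between these comparisons is not given here, so the shares are not shown to be particular to Zfp genes. Zfp326 and Zfp276 passed in opposite directions. Epithelial markers were higher here, 3 of 4 detected ones with 1 lower, and the summed signal of the 4 was 896 and 1224 with both agents, against 173 and 245 with ADR alone, while Cdh1, Epcam and Krt8 were undetected on all 16 arrays. Their part in the members' differences was not tested.

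Zfp90 again had the lowest value. It read 5.81 and 5.72 on the Smad1-/- and Smad1f/f arrays with both agents, against 7.83 and 7.78 with ADR alone, a difference of -2.04 ± 0.17 (adjusted p = 2.99e-06 by limma). Zfp101 read 5.51 and 5.47 with both agents, against 6.76 and 6.91 with ADR alone, a difference of -1.34 ± 0.15. Zfp810 at -1.33 ± 0.14, Zfp521 at -1.31 ± 0.11 and Zfp318, which controls expression of IgD in B cells, at -1.30 ± 0.13 completed the lowest 5 (adjusted p between 2.62e-06 and 2.25e-05 by limma). Each of them was lower in both lines, which the choice of the genes named required. Zfp148, a GC-box binding factor, differed by -1.07 ± 0.12, Zfp106, an RNA-binding protein, by -0.70 ± 0.088, and Zfp516, a factor of brown fat, by -0.66 ± 0.14.

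The highest member was Zfp707, which read 9.72 and 9.99 with both agents, against 6.87 and 6.88 with ADR alone. That is a difference of 2.98 ± 0.13, or 7.87-fold (adjusted p = 4.02e-08 by limma). Zfp296 differed by 2.31 ± 0.17, Zfp219 by 1.96 ± 0.092 and Zfp654 by 1.49 ± 0.12, and Zfp750 was at least 1.67-fold higher (adjusted p between 6.66e-08 and 2.98e-05 by limma). Zfp36, whose mRNA is itself an early response transcript, was 0.66 ± 0.12 higher, and Zfp281, a GC-rich DNA binding factor, 0.43 ± 0.12 higher.

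**Figure D3:**
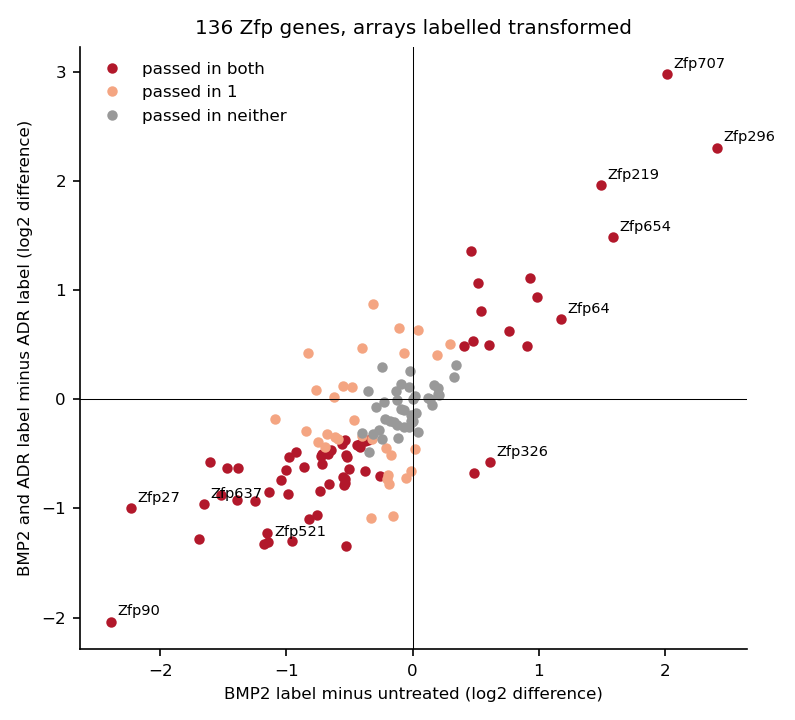
Each point is 1 of 136 Zfp genes on the arrays labelled transformed, with the log2 difference of BMP2 from untreated on the x axis and that of BMP2 with ADR from ADR alone on the y axis, coloured by whether the gene passed in both comparisons, in 1 or in neither. The 47 genes lower in both sit at the lower left, led by Zfp90, and the 15 higher in both at the upper right, led by Zfp707 and Zfp296, while Zfp326 sits at the lower right.

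DNA damage genes rose in both BMP2 comparisons in which these Zfp genes fell. Of 29 p53 target and damage genes tested, 17 rose and 2 fell with BMP2 alone, with Acer2, a ceramidase, at least 19.6-fold higher, Pmaip1, the apoptosis gene Noxa, at 2.63 ± 0.11 and Fas, a death receptor, at 2.57 ± 0.13 (adjusted p = 2.84e-08, 1.43e-07 and 2.95e-07 by limma). Cdkn1a, which encodes p21, differed by 0.20 ± 0.075 and Mdm2, the ubiquitin ligase of p53, by 0.57 ± 0.074. With BMP2 added to ADR 19 rose and 2 fell, and Cdkn1a and Mdm2 differed by 1.02 ± 0.075 and 1.56 ± 0.074. The median of the list was 0.35 and 0.81 in those comparisons, beside -0.30 and -0.33 for the Zfp genes.

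Array by array, the Zfp median relative to the untreated array of the same line was -0.23 and -0.27 with both agents, -0.22 and -0.26 with BMP2 alone and 0.0064 and 0.013 with ADR alone, Smad1-/- first. The damage genes gave 0.61 and 0.63, then 0.29 and 0.36, then -0.12 and -0.046 in the same order. On the arrays labelled primary the 2 groups did not move together to that extent. The damage genes gave 0.47 and 0.24 with both agents and 0.31 and 0.13 with BMP2 alone at 8 h and 16 h, while the Zfp medians were -0.060, -0.056, -0.050 and -0.036, beside -0.028 to -0.018 for all genes on those arrays. Because the 3 treated arrays of a line share 1 untreated array, these values are not independent of each other.

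**Figure D4:**
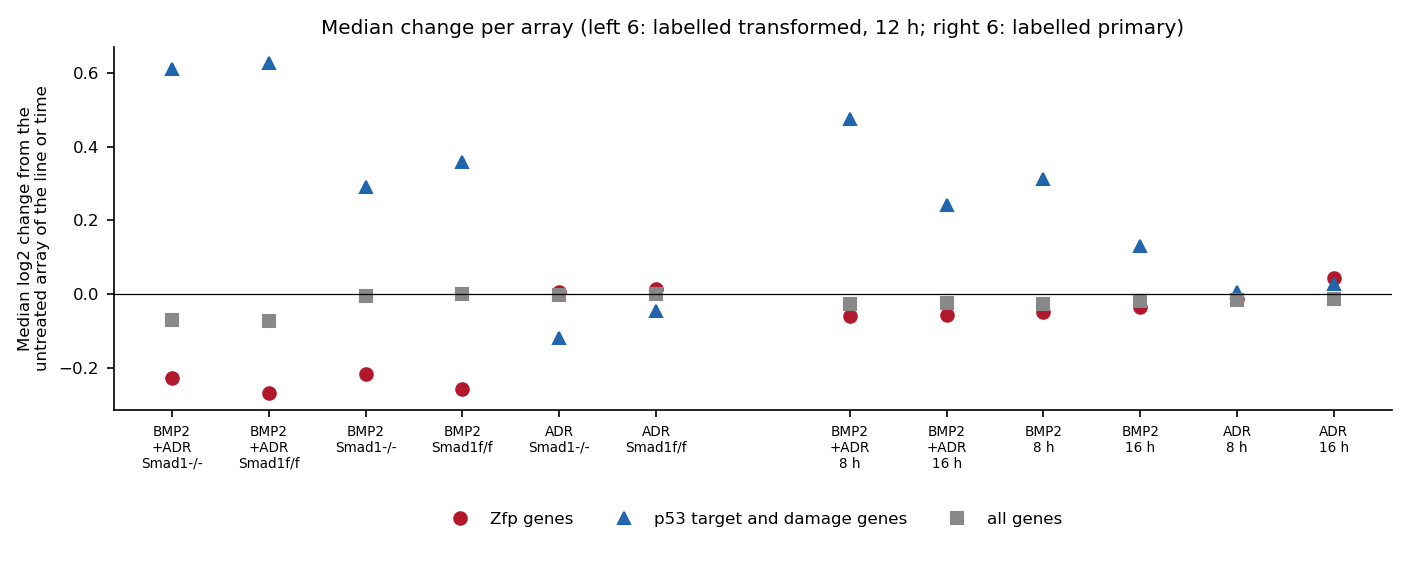
Points give the median log2 change of the Zfp genes (circles), p53 target and damage genes (triangles) and all genes (squares) on each treated array, relative to the untreated array of its line or time. On the 4 transformed arrays with BMP2 the Zfp medians lie between -0.27 and -0.22 and the damage gene medians between 0.29 and 0.63, and on the 4 primary arrays with BMP2 the Zfp medians lie between -0.060 and -0.036.

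Corepressor and heterochromatin genes, among them partners of KRAB zinc finger proteins, fell as well on the transformed arrays. Of 12 such genes tested, 7 fell and 0 rose with BMP2 alone, beside 24.9% and 24.2% of all genes. With BMP2 added to ADR 9 fell and 0 rose, beside 32.1% and 26.9% of all genes. Trim28, the corepressor itself, differed by -0.62 ± 0.081 with BMP2 alone and by -0.85 ± 0.081 on top of ADR (adjusted p = 1.22e-04 and 7.95e-06 by limma). Smarcad1, a chromatin remodeller, Atf7ip, a partner of SETDB1, and Trim33, a relative of TRIM28, had the largest differences with BMP2 alone, at -2.02 ± 0.13, -1.24 ± 0.13 and -0.93 ± 0.15. Uhrf1 and Dnmt1, which maintain DNA methylation, led on top of ADR at -1.86 ± 0.094 and -1.83 ± 0.12. Of 23 immediate early genes, another class with short-lived mRNA, 15 fell and 5 rose with BMP2 alone, led by Ccn2 and Ccn1, matricellular proteins, at -2.49 ± 0.081 and -2.37 ± 0.12, and 8 fell and 8 rose on top of ADR.

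ADR alone left no Zfp gene past the threshold. On the transformed arrays 0 of 136 members passed with ADR alone in limma (smallest adjusted p = 0.0597), 13 were higher and 6 lower at an unadjusted p under 0.05, and 1.95% and 1.92% of all genes passed higher and lower. Of 29 damage genes 2 passed higher and 1 lower. On the primary arrays 0 of 145 members passed with ADR alone, where 0.329% and 0.148% of all genes passed higher and lower. With ADR added to BMP2 0 members passed, where 0.148% and 0.0424% of all genes passed higher and lower. An unadjusted p under 0.05 is a looser cut, and its share over all genes is not given. By it 3 members were higher and 5 lower with ADR alone, and 4 higher and 2 lower with ADR added to BMP2. The difference of these 2 ADR effects passed for 0 members (4 higher and 2 lower unadjusted) and 0% of all genes. Of 31 damage genes 0 passed in any of these comparisons. Between the Smad1-/- and Smad1f/f labels 0 of 136 members passed, 2 were higher and 6 lower at an unadjusted p under 0.05, and 0.127% and 0.00973% of all genes passed higher and lower. On the transformed arrays 3 members were lower with ADR alone under median scaling, 2 with the authors' values and 1 in 1 fit of all 16 arrays. The first 2 counts are 2.21% and 1.47% of members, below the 4.69% and 3.66% of all genes.

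When ADR was added to BMP2 on the transformed arrays, 26 of 136 members rose and 11 fell, a share higher of 19.1% near the 19.8% of all genes and a share lower of 8.09%, against 19.2% of all genes. The count lower depended on the scaling. It was 5 with median scaling, where 10.9% of all genes were lower and 24.9% higher, and 17 with the authors' log2 values, where 19 members were higher and 23.4% of all genes were lower and 17.8% higher. The higher calls were 87.2% of the members' calls with median scaling. The damage genes rose here too, 13 of 29 higher and 0 lower, with Perp, a p53 target of desmosomes, at 1.57 ± 0.17. This is a comparison in which the damage genes rose and the median Zfp gene did not fall, at 0.027. Epithelial markers were again higher, 3 of 4 with 1 lower, with summed signals of 896 and 1224 with both agents, against 271 and 345 with BMP2 alone. Their part was not tested.

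Zfp326 had the lowest value of this comparison. It read 7.57 and 7.52 on the Smad1-/- and Smad1f/f arrays with both agents, against 9.12 and 9.13 with BMP2 alone, a difference of -1.58 ± 0.11 (adjusted p = 6.81e-06 by limma). It thus lay above the untreated arrays with BMP2 alone and below them with both agents. Zfp276 differed by -0.97 ± 0.17, Zfp101 by -0.94 ± 0.15, Zfp30 by -0.65 ± 0.18 and Zfp516 by -0.54 ± 0.14. Higher were Zfp707 at 1.25 ± 0.13, Zfp513 at 1.11 ± 0.16 and Zfp317 at 1.00 ± 0.17, with Zfp27 at least 1.89-fold and Zfp93 at least 1.83-fold higher (adjusted p between 5.52e-05 and 0.0164 by limma). Zfp27, Zfp317, Zfp513 and Zfp93 were lower with BMP2 alone than untreated, so the rise brought them back towards the untreated level.

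Zfp36 rose when ADR was added to BMP2, as most immediate early genes did. It read 8.85 and 9.06 with both agents, against 8.01 and 8.14 with BMP2 alone, and 8.32 and 8.27 with ADR alone. Only the arrays with both agents stood apart from the other transformed arrays, and the difference from BMP2 alone was 0.88 ± 0.12 (adjusted p = 3.39e-04 by limma). Of 23 immediate early genes 16 rose and 1 fell in the same comparison, with Ccn1 at 1.43 ± 0.12, Fosl2 at 1.33 ± 0.097 and Klf6 at 1.26 ± 0.091. Against untreated arrays Zfp36 and these genes differed. Their median change was -0.38 and -0.49 with BMP2 alone and 0.073 and 0.028 with both agents, Smad1-/- first. Zfp36 averaged 8.19 untreated, so it was little changed with BMP2 alone and higher with both agents. The count of members lower dropped to 6 without the Smad1f/f BMP2 array, without the Smad1-/- BMP2 array or without the array of both agents from Smad1f/f, and the count higher dropped to 15 without the Smad1-/- BMP2 array.

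The difference of these ADR effects, ADR added to BMP2 minus ADR alone, was tested itself on the transformed arrays. It passed for 28 members, 18 higher (13.2%) and 10 lower (7.35%), against 12% and 11.2% of all genes. Zfp326 at -1.19 ± 0.16, Zfp276 at -1.16 ± 0.23 and Zfp148 at -0.92 ± 0.18 were lowest. Of the members higher, Zfp800 differed by 1.19 ± 0.23, Zfp317 by 1.04 ± 0.24 and Zfp707 by 0.96 ± 0.18 (adjusted p between 7.85e-04 and 0.0115 over these 6 by limma). Zfp93 and Zfp27 passed higher too but were undetected on both BMP2 arrays, so they have no exact value. The counts moved with single arrays. The higher count was 9, 9, 8, 9 and 11 without the untreated Smad1f/f, untreated Smad1-/-, BMP2 Smad1f/f, BMP2 Smad1-/- and BMP2 with ADR Smad1f/f array. The lower count was between 3 and 6 without one of the untreated, BMP2 or ADR arrays of either line.

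**Figure D5:**
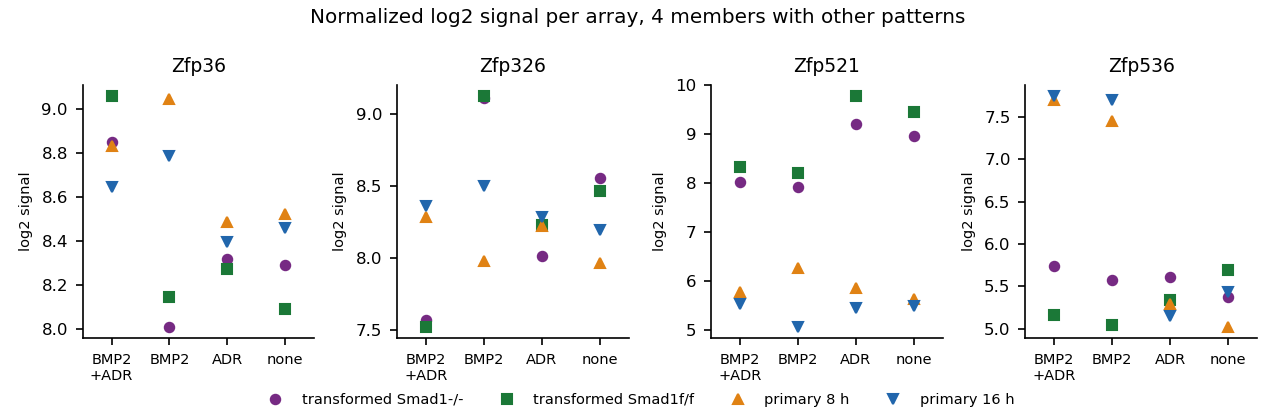
Each panel plots the normalized log2 signal of 1 gene on all 16 arrays by treatment label, with symbols as for the other genes shown by array. Zfp36 is highest among the transformed arrays where both agents were given, Zfp326 is high with BMP2 and low with both agents, Zfp521 is high on all transformed arrays, and Zfp536 is high on the 4 primary arrays with BMP2.

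The arrays labelled primary gave a different set of BMP2 responses. With BMP2 alone 7 of 145 members rose and 3 fell, 4.83% and 2.07%, against 7.55% and 6.63% of all 9429 genes, while 10 of 31 damage genes rose and 0 fell, with Ephx1, an epoxide hydrolase, at 1.64 ± 0.14 and Cdkn1a and Pmaip1 at 1.07 ± 0.11 and 1.07 ± 0.13. The leading member was Zfp536, which read 7.45 and 7.70 with BMP2 at 8 h and 16 h, against 5.02 and 5.43 untreated, a difference of 2.35 ± 0.17 (adjusted p = 7.37e-07 by limma). Zfp951 was at least 1.85-fold higher. Zfp28 at 0.60 ± 0.13, Zfp281 at 0.55 ± 0.10, Zfp639 at 0.49 ± 0.086, Zfp219 at 0.45 ± 0.11 and Zfp36 at 0.42 ± 0.11 were higher (adjusted p between 0.00167 and 0.0164 by limma), although Zfp36 no longer passed with median scaling. Lower were Zfp277, which recruits Polycomb proteins to the Ink4a/Arf locus in MEFs, at -0.57 ± 0.13, Zfp747 at -0.51 ± 0.14 and Zfp954, at least 1.27-fold. Leaving out the untreated 8 h, BMP2 8 h, untreated 16 h or BMP2 16 h array left 0 or 1 members lower, and 4, 4, 6 and 3 higher in that order.

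BMP2 added to ADR on the primary arrays raised 7 members and lowered 0, against 7.75% and 5.68% of all genes. Of the 7, 4 also rose with BMP2 alone, and the overlap of all genes is not given here. Zfp536 was at least 5.31-fold higher, having read 7.70 and 7.75 with both agents, against 5.29 and 5.16 with ADR alone. Zfp951 and Zfp750 were at least 1.53-fold and 1.19-fold higher, and Zfp275, Zfp281, Zfp639 and Zfp362 differed by 0.67 ± 0.16, 0.53 ± 0.10, 0.45 ± 0.086 and 0.35 ± 0.11 (adjusted p between 0.00288 and 0.0441 by limma). The count of 7 became 4 without the ADR 8 h, ADR 16 h or BMP2 with ADR 16 h array and 3 without the BMP2 with ADR 8 h array. The keratin gene Krt18 was lower with BMP2, by -0.76 ± 0.12 in the comparison with untreated arrays, and the summed epithelial signal was 2220 and 1967 with BMP2 alone, against 4356 and 2722 untreated. Krt7 did not follow Krt18. At 16 h it read 6.18 with both agents and 6.11 with BMP2, against 4.98 with ADR alone and 5.05 untreated, and at 8 h 4.92 and 4.84, against 4.90 and 5.02. Their part was not tested.

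The BMP2 responses of the arrays labelled transformed and primary were set against each other in 1 fit of all 16 arrays, a comparison added after the data were seen. The BMP2 difference was lower on the transformed arrays for 46 of 157 members and higher for 12, 29.3% and 7.64%, against 19.9% and 19.7% of all 10982 genes. Zfp536 had the lowest value at -2.57 ± 0.28, having risen on the primary arrays and differed by -0.22 ± 0.21 on the transformed ones, followed by Zfp90 at -2.35 ± 0.24, Zfp637 at -1.55 ± 0.15 and Zfp317 at -1.52 ± 0.20. The highest were Zfp707 at 2.10 ± 0.20, Zfp296 at 2.05 ± 0.22, Zfp654 at 1.61 ± 0.20, Zfp597 at 1.11 ± 0.17 and Zfp747 at 1.05 ± 0.18 (adjusted p between 6.47e-07 and 2.60e-04 over these 9 by limma). Zfp27 passed lower too but was undetected on both transformed BMP2 arrays, so it has no exact value. Time differs between the sets too, with 12 h against 0 h on the transformed arrays and equal times on the primary ones, and this cannot be told apart from the set.

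Time in culture could be read on the primary arrays alone, 16 h against 8 h over 4 treatments. Of 145 members 30 fell and 9 rose, with a median of -0.095, and the shares were 20.7% lower and 6.21% higher, against 19.1% and 14.8% of all genes. Of 31 damage genes 24 rose and 0 fell, led by Dcxr, a sugar and carbonyl reductase, at 2.15 ± 0.088, Apaf1, which activates caspase 9, at 1.59 ± 0.14 and Pmaip1 at 1.59 ± 0.094. Cdkn1a differed by 1.13 ± 0.079 and Mdm2 by 0.76 ± 0.13. The share of Zfp genes that fell was thus near that of all genes while damage genes rose. With median scaling the members' median turned to 0.052, with 12 lower and 19 higher, and the median of all genes was 0.070. On that scaling 8.28% of members and 7.88% of all genes were lower, and 22.6% of all genes were higher. With the authors' values 54 members were lower and 7 higher, 37.2% and 4.83%, against 34.2% and 11.7% of all genes. The count higher dropped to 4 without the ADR 8 h array or without the ADR 16 h array.

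The lowest member with time was Zfp184, which read 5.92 with both agents, 5.99 with BMP2, 6.10 with ADR and 6.18 untreated at 16 h, against 6.70, 6.55, 6.85 and 6.97 at 8 h. The difference was -0.72 ± 0.11 (adjusted p = 1.93e-04 by limma). Zfp593, a factor of ribosome assembly, differed by -0.64 ± 0.10, Zfp652 by -0.63 ± 0.14, Zfp472 by -0.59 ± 0.092 and Zfp708 by -0.56 ± 0.12. Zfp219 read 9.35, 9.29, 9.06 and 8.95 at 16 h in the same order of treatments, against 8.61, 8.61, 8.32 and 8.04 at 8 h, and was 0.76 ± 0.074 higher (adjusted p = 5.19e-06 by limma). Zfp688 at 0.67 ± 0.11 and Zfp248 at 0.38 ± 0.12 were higher too, while Zfp750 was undetected at 8 h and at least 1.01-fold higher.

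In level, the Smad1f/f arrays labelled transformed had lower values than the arrays labelled primary at 70 of 157 members and higher values at 19, with a median of -0.26. That is 44.6% and 12.1% of members, against 36.8% and 27% of all genes. Of these, 14 of the 70 and 4 of the 19 were undetected on all arrays of the lower side. Zfp521 ranged from 8.21 to 9.78 on the 4 Smad1f/f arrays, against 5.07 to 6.27 on the 8 primary arrays, and was 3.31 ± 0.25 higher. Zfp871 ranged from 7.58 to 7.67, against 4.84 to 5.45, and was 2.43 ± 0.10 higher. Zfp362 and Zfp367 were 1.47 ± 0.12 and 1.30 ± 0.13 higher, and Zfp467 was at least 1.35-fold higher. Lower were Zfp512 at -1.44 ± 0.21, Zfp941 at -1.41 ± 0.12, Zfp324 at -1.35 ± 0.10, Zfp101 at -1.34 ± 0.19 and Zfp704 at -1.28 ± 0.15 (adjusted p between 1.58e-10 and 4.13e-04 over the genes named by limma). Set, time and any batch cannot be told apart in this comparison, and 9 of 9 fibroblast markers were higher on the Smad1f/f arrays.

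The excess of falling members with BMP2 alone on the transformed arrays was seen at every brightness. With members split into 3 classes by mean signal, a description added after the data were seen, 31.3% of the dimmest, 52.9% of the middle and 44.2% of the brightest class were lower, against 10.8%, 24.1% and 31.6% of all genes in the same signal ranges. Many Zfp genes lie in clusters, and 40 of the 157 members stood next to another member in the order of protein-coding genes of RefSeq (GRCm38.p6), in 17 runs of at most 4. Among those tested 12 of 34 (35.3%) with a member beside them were lower, against 49 of 102 (48.0%) without one, a difference that was not tested.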

How the data were processed

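RNA of 16 samples was measured on Illumina BeadChips of 24613 probes, 1 array for each condition. The deposited signal intensity of each probe and its detection p-value (stored as 1 minus p) were exported from GenomeStudio 2011.1, per the submitters' processing notes. The authors' table of log2 values holds, as tested on the signals, each signal less its array's 75th percentile and its probe's median. The deposited signal column of the transformed Smad1-/- BMP2 array repeated another array's in 100% of probes. It was recovered from the authors' log2 table and correlated with its own detection values at a Spearman rho of 0.992, against at most 0.947 with any other array's.

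Signals were normalized with neqc (offset 16) in limma 3.58.1 (R 4.3.3, Python 3.11.15). The brightest probe stood for a gene, and a gene was tested where 2 or more of the fitted arrays detected it (p under 0.05). Within each set of 8 arrays limma fitted line (or time) plus 4 treatments, with 3 residual degrees of freedom, and the level comparison had 10. Adjusted p-values are Benjamini-Hochberg values over all genes tested. The fold of a gene undetected on every array of one side is a lower bound against the lowest detected signals. Array number limits the precision. In simulated data for the transformed set (10276 genes) 16.1%, 72.6% and 98.7% of changes of 0.5, 1 and 2 on the log2 scale were called, and for the primary set (9429 genes) 29.3%, 81.6% and 93.9%. False calls were 2.99%, 4.73% and 6.92% of calls for the transformed, primary and level fits. In the transformed set 62, 62 and 76 genes were changed, far fewer than the 2490 higher and 2558 lower with BMP2 alone. The call rates may thus differ in the BMP2 comparisons.

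The genes named were, in each comparison, the 5 highest and 5 lowest passing members with 1 sign in every pair of arrays, the 5 brightest members, members with known roles, and the 3 leading genes of each other list with Cdkn1a, Mdm2 and Trim28. Genes shown by array, or named as holders of a motif or as losing a call, were also chosen after their values were seen. The members and lists were chosen with earlier results of these data known. Tried instead were median scaling, uncorrected signals, the log2 table, other detection filters, averaged probes, 1 fit of all arrays and leaving out each array. Protein sequences were not analysed here.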

Additional observations from a re-analysis of the deposited data

Results flagged for a closer look

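Both sets of results given here are tests of a difference between effects, and no cause was tested. On the arrays labelled transformed the effect of ADR differed with BMP2 present and absent for 28 Zfp genes, 18 higher and 10 lower, 13.2% and 7.35% of members, against 12% and 11.2% of all genes. Leaving out 1 array at a time gave 8 to 14 higher and 3 to 7 lower. Zfp326, the DBIRD subunit, at -1.19, Zfp276 at -1.16, Zfp148 at -0.92, Zfp101 at -0.82 and Zfp28 at -0.76 were lowest on the log2 scale, and Zfp93 at 1.25, Zfp27 at 1.24, Zfp800 at 1.19, Zfp317 at 1.04 and Zfp707 at 0.96 highest. Zfp93 and Zfp27 were undetected on both BMP2 arrays, so their values and their place in this order rest on signals not above background.

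The effect of BMP2 differed between the arrays labelled transformed and primary for 58 Zfp genes, 12 higher and 46 lower on the transformed arrays, 7.64% and 29.3% of members, against 19.7% and 19.9% of all 10982 genes. Zfp536 at -2.57, Zfp90 at -2.35, Zfp27 at -2.28, Zfp637 at -1.55 and Zfp317 at -1.52 were lowest, and Zfp707 at 2.10, Zfp296 at 2.05, Zfp654 at 1.61, Zfp597 at 1.11 and Zfp747 at 1.05 highest. The value and place of Zfp27 rest on signals not above background, since it was undetected on both transformed BMP2 arrays. The sets also differ in time, and this cannot be told apart.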

How the results depend on the processing

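Over the alternatives 0 of 2732 values past the threshold for named genes changed sign, and 195 no longer passed. With median scaling the members lower were 3 with ADR alone, 5 with ADR added to BMP2 and 3 for the difference of these effects on the transformed arrays. Those are 2.21%, 3.68% and 2.21% of members, against 4.69%, 10.9% and 3.22% of all genes. On the same scaling 11 members were higher with BMP2 alone on the transformed arrays, where 14.0% of all genes were higher. On the primary arrays 1 member was lower with BMP2 added to ADR, where 6.21% of all genes were lower. At 16 h 12 members were lower and 19 higher, beside 7.88% and 22.6% of all genes. In the comparison of BMP2 effects between sets 7 members were higher, beside 12.2% of all genes. Higher calls were then 87.2% of all calls with ADR added to BMP2 and 61.3% at 16 h. With the authors' log2 values 2 members were lower with ADR alone, 17 with ADR added to BMP2 and 54 at 16 h. Of all genes 3.66%, 23.4% and 34.2% were lower on those values. One fit of all 16 arrays gave 1 lower with ADR alone. Without the detection filter 6 were lower for the difference of ADR effects and 1 with BMP2 alone on the primary arrays. With detection on every array 4 were higher with BMP2 added to ADR on the primary arrays, and 11 higher and 39 lower in level. The cause was not tested, except that the last filter leaves 90 members to test in level.

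Leaving out 1 array at a time gave, on the transformed arrays, 41 to 60 members lower and 12 to 17 higher with BMP2 alone, 46 to 61 and 15 to 23 with BMP2 added to ADR, 6 to 12 and 15 to 26 with ADR added to BMP2, and 3 to 7 and 8 to 14 for the difference of ADR effects. On the primary arrays it gave 0 to 3 lower and 3 to 7 higher with BMP2 alone, 0 to 1 and 3 to 7 with BMP2 added to ADR, and 21 to 26 and 4 to 7 at 16 h. It gave 60 to 71 and 17 to 21 in level, and 37 to 47 and 8 to 12 for the comparison between sets. No paired analysis was possible because the labels name no replicates that would pair arrays. Line or time, which arrays do share, was already a term of each fit within a set. Dim probes limit the folds given as bounds.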
